A study of Homo sapiens with 3 samples.

Results

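The numbered zinc finger genes, whose symbols are ZNF followed by a number and at most 1 further letter, were described in H660 cells treated with the HSP70 inhibitor JG231. The table of 58735 genes listed 558 of them. Members were selected on their measured level, as the 135 with a mean of at least 5 FPKM (fragments scaled to transcript length and to the number of mapped fragments) over the 3 libraries. H660 is an established human cell line from a neuroendocrine prostate cancer, labelled parental, and RNA was sequenced after 24 h with vehicle (DMSO), 2.5 μM JG231 or 5 μM JG231. There was 1 library per condition, so no spread between replicates could be estimated and no test or p-value is given. JG231 is an allosteric inhibitor of the HSP70 chaperones, and the study asked how its treatment altered gene expression in cells that depend on N-Myc.

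C2H2 zinc finger proteins form the largest family of transcription factors in the human genome. Each finger folds around a zinc ion and contacts a few bases of DNA, and arrays of fingers give each protein its own target sequence. Many members carry a KRAB box at their start, which binds TRIM28 (also known as KAP1), and TRIM28 brings the histone methyltransferase SETDB1, HP1 proteins and deacetylases that silence transposons. Numbered ZNF genes arose by repeated duplication and lie in clusters, most of all on chromosome 19. Others of the same naming scheme have no KRAB box and act in ribosome quality control, RNA processing or as promoter-binding activators.

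The cells were checked against marker genes. The neuroendocrine markers CHGA, SYP, ENO2, NCAM1 and INSM1 were detected in every library, with CHGA at 46.0 FPKM in DMSO. MYCN was below 1 FPKM in each of the 3 libraries. The prostate luminal markers KLK3 and TMPRSS2 were at most 0.134 and 0.315 FPKM, and KLK2 was listed at 0, as were DCN, PECAM1 and PTPRC of stroma, endothelium and blood. COL1A1 was between 0.745 and 1.27 FPKM, and the endothelial gene CDH5 went from 4.92 FPKM in DMSO to 0.476 and 0.581 FPKM at the lower and the higher dose. Depth recovered from the FPKM steps was 16.1, 20.4 and 24.1 M fragments in the DMSO, 2.5 μM and 5 μM libraries. Mitochondrial genes held 39.8% of all FPKM with vehicle, 24.1% with 2.5 μM and 28.8% with 5 μM, and the part of this difference in the changes below was followed by rescaling.

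Promoters are shown for 5 members whose levels differed most from DMSO or that hold a motif of interest. They are the 250 bases before the annotated start in RefSeq, build GRCh38.p14, written on the strand of the gene. Capitals mark a match to GAANNTTC, the core of the heat shock element read by HSF1, or to CACGTG, the E-box read by MYC and MAX. ZNF653 (chr19:11505840-11506089, minus strand), ZNF622 (chr5:16465801-16466050, minus strand) and ZNF260 (chr19:36528272-36528521, minus strand) hold the first motif. ZNF512 (chr2:27582792-27583041, plus strand) holds the second. ZNF787 (chr19:56121296-56121545, minus strand) holds neither and has 27 CpG dinucleotides, against a median of 19 over the members.
ZNF653: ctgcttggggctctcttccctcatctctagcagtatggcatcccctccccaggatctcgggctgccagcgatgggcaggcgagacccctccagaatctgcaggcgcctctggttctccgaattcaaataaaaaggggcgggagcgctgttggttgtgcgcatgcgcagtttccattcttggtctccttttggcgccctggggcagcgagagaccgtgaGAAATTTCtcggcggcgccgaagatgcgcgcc
ZNF622: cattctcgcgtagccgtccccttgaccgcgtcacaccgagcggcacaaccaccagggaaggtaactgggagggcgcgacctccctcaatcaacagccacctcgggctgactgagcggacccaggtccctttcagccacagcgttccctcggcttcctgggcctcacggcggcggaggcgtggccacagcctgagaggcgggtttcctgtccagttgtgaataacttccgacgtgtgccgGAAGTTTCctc
ZNF260: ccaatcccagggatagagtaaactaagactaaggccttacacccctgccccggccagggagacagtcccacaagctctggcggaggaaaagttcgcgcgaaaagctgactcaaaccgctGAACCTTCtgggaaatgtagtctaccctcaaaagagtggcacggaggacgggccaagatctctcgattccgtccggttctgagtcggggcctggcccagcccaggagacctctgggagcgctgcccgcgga
ZNF512: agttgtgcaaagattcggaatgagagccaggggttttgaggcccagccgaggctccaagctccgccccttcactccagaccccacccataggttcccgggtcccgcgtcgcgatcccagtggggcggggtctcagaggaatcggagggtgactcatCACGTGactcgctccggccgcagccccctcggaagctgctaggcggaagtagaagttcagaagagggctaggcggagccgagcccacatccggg
ZNF787: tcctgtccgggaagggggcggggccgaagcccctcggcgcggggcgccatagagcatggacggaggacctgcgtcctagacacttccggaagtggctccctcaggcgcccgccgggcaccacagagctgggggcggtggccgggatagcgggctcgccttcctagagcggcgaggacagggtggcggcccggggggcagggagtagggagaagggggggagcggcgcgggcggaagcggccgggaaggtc
ZNF653, ZNF622 and ZNF787 were higher with JG231 at both doses, and ZNF260 and ZNF512 were lower.

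More members were higher than lower at each dose on the deposited scale, an order that turned when the libraries were rescaled outside mitochondrial and small RNA genes. A gene was called higher or lower when log2 of (FPKM + 0.1) differed from DMSO by more than 0.25, the cutoff in the methods of the study. At 2.5 μM, 63 of the 135 members (46.7%) were higher and 36 (26.7%) were lower. The same calls over all 7583 genes with a mean of at least 5 FPKM gave 48.0% higher and 26.1% lower. At 5 μM, 64 members (47.4%) were higher and 41 (30.4%) were lower, beside 48.8% and 27.4% of all such genes. The shares of the members were thus close to the background at both doses. The median log2 change of the members was 0.20 for the lower dose and 0.24 for the higher dose, and that of all genes of this level was 0.21 and 0.23. A single DMSO library served for both doses, so the 2 sets of changes are not independent.

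The direction of the median depended on how the libraries were scaled. When each library was rescaled to its FPKM outside mitochondrial and small RNA genes, the median of all genes moved by -0.29 at 2.5 μM and by -0.38 at 5 μM on the log2 scale. The members then had medians of -0.09 and -0.14, against -0.08 and -0.15 for all genes. Of the members called at 2.5 μM, 63.6% were higher as deposited, 45.8% after this rescaling, 51.6% with changes centred on the median gene and 68.0% with libraries set to 1 sum of FPKM. Over all genes called, these shares were 64.8%, 44.4%, 49.8% and 67.9%. At 5 μM they were 61.0%, 42.3%, 51.0% and 54.6% of the members called, and 64.1%, 39.7%, 49.3% and 55.6% of all genes called. The members moved with all other genes under each of these scalings, and a difference of a gene from DMSO is therefore relative to the scale of its library.

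**Figure D1:**
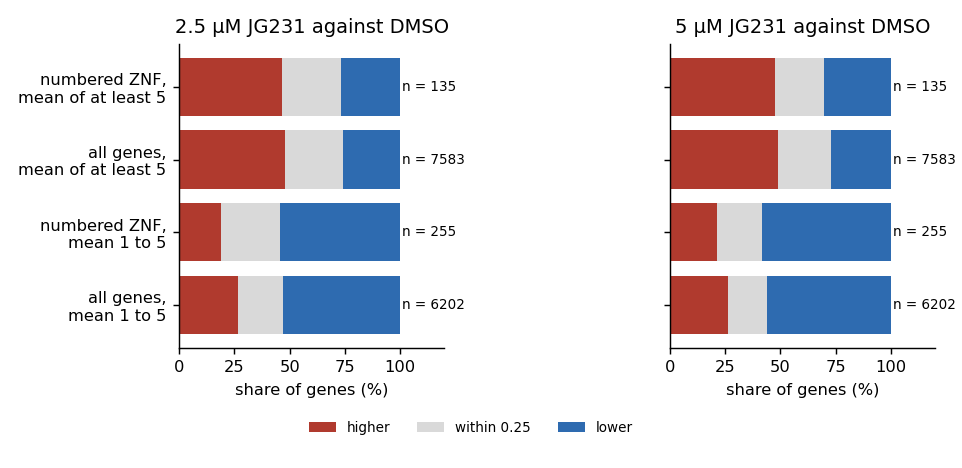
Share of genes higher (red), within 0.25 (grey) or lower (blue) than DMSO, in percent, at 2.5 μM (left) and 5 μM (right), on the deposited FPKM scale. The 135 members match all 7583 genes of the same level to within a few points at either dose, and the 255 numbered ZNF genes between 1 and 5 FPKM were mostly lower, as were all 6202 genes at that level, whereas after rescaling outside mitochondrial and small RNA genes more members were lower than higher at both doses.

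Taken over both doses, 56 members (41.5%) were higher at each and 30 (22.2%) were lower at each, beside 41.9% and 20.9% of all genes with a mean of at least 5 FPKM. The order turned after rescaling outside mitochondrial and small RNA genes, with 37 members (27.4%) higher and 43 (31.9%) lower at both doses, beside 1909 higher and 2729 lower of all 7583 genes. Changes past 1 on the log2 scale at both doses were found for 14 members upwards (10.4%) and 2 downwards, and for 11.4% and 4.69% of all genes. Of the remainder, 19 members (14.1%) stayed within 0.25 at both doses and 2 (1.48%) passed it in opposite directions, beside 1063 and 108 (1.42%) of the 7583 genes. The extremes were 2.47 (ZNF703) and -2.33 (ZNF117) at 2.5 μM, and 2.502 (ZNF787) and -2.36 (ZNF117) at 5 μM.

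**Figure D2:**
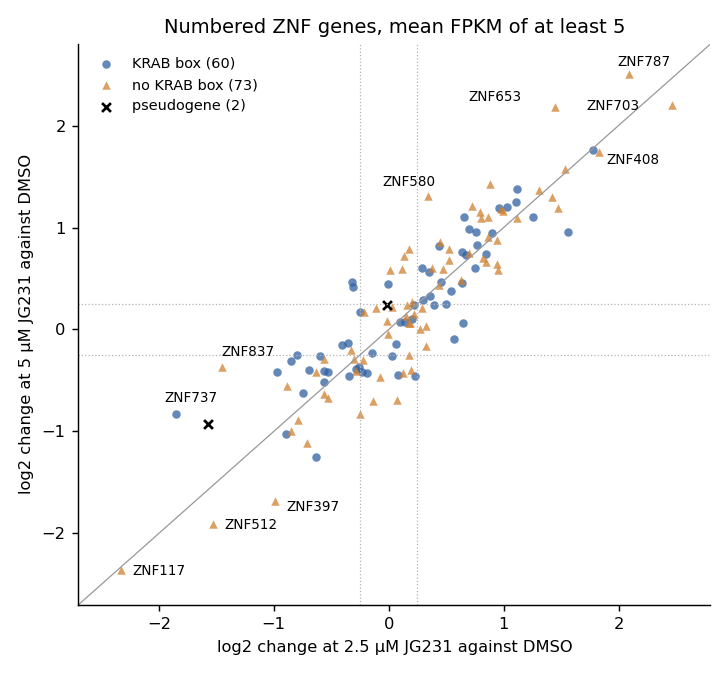
Log2 change against DMSO at 2.5 μM (horizontal) and 5 μM (vertical) JG231 for each of the 135 members, with 60 KRAB members as circles, 73 others as triangles and 2 pseudogenes as crosses; dotted lines mark 0.25 either side of 0 and the diagonal marks equal change. At 2.5 μM the KRAB members ran from -1.85 to 1.78 and the other coding members from -2.33 to 2.47, and both axes share the DMSO library.

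The rule on the level shaped this picture. Numbered ZNF genes with a mean of 1 to 5 FPKM, which the rule left out, were more often lower. Of these 255 genes, 118 (46.3%) were lower and 32 (12.5%) were higher at both doses, with median log2 changes of -0.40 and -0.42. Of all 6202 genes of that level, 2729 were lower and 1072 (17.3%) higher at both doses, with medians of -0.33 and -0.41. Just inside the limit lay ZNF737, ZNF512 and ZNF397, with means of 5.03, 5.06 and 5.07 FPKM. These 3 passed only through the DMSO library, so that their treated values had to lie below it. In all, 8 members were under 5 FPKM in both treated libraries, ZNF117, ZNF512B and ZNF326 among them, and 8 of these were lower at both doses. Another 21 members, ZNF703, ZNF653, ZNF408, ZNF688 and ZNF16 among them, were under 5 FPKM in DMSO and passed only through treated libraries, and 17 of these were higher at both doses. Just outside lay ZNF554, ZNF202 and ZNF451, with means of 4.99, 4.94 and 4.92 FPKM, of which ZNF554 changed by 0.21 at 2.5 μM and 0.73 at 5 μM. Across libraries, 144 numbered ZNF genes reached 5 FPKM in the DMSO library, 121 in the 2.5 μM library and 130 in the 5 μM library.

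By the smaller of its changes at the 2 doses, the largest increase was that of ZNF703, a transcriptional corepressor of the NET family that is amplified in luminal breast cancers. Its level was 4.62 FPKM with vehicle, 26.0 FPKM at 2.5 μM and 21.6 FPKM at 5 μM, a log2 change of 2.47 (95% counting interval 2.28 to 2.66) and 2.20 (2.01 to 2.39). Counting intervals were computed from fragments estimated with canonical transcript lengths and cover counting error only. ZNF787 on chromosome 19 (56087366 to 56121295, GRCh38) stood at 9.06, 38.9 and 51.8 FPKM in DMSO, 2.5 μM and 5 μM, with changes of 2.09 (1.91 to 2.27) and 2.502 (2.32 to 2.68). Both genes were several times higher in each treated library than in DMSO, ZNF703 more so at the lower dose and ZNF787 at the higher.

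ZNF653 was at 3.71 FPKM with vehicle, 10.3 at 2.5 μM and 17.2 at 5 μM, with log2 changes of 1.44 (1.16 to 1.73) and 2.19 (1.92 to 2.45). ZNF408, a gene of retinal vessel development, was at 3.09, 11.2 and 10.6 FPKM, with changes of 1.83 and 1.74. ZNF688, a KRAB member, was at 1.97, 7.01 and 6.92 FPKM, with changes of 1.78 and 1.76. Its DMSO value rested on an estimated 35 fragments, the fewest of any member in any library. Each of these 3 genes was below 4 FPKM in DMSO, and ZNF653 had the highest level of them at 5 μM. ZNF581 was at 9.38, 27.4 and 28.1 FPKM (changes of 1.54 and 1.57). ZNF16 was at 3.98, 10.02 and 10.4 FPKM (1.31 and 1.36).

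The largest decrease was that of ZNF117 on chromosome 7 (64971772 to 65006684), a gene that shares its locus with the endogenous retroviral envelope gene ERV3-1. It was at 16.4 FPKM with vehicle, 3.18 at 2.5 μM and 3.12 at 5 μM, with log2 changes of -2.33 (-2.46 to -2.20) and -2.36 (-2.48 to -2.23). ZNF512 on chromosome 2 (27582969 to 27623217) was at 9.50, 3.23 and 2.47 FPKM, with changes of -1.53 (-1.75 to -1.31) and -1.90 (-2.13 to -1.67). ZNF117 and ZNF512 were the 2 members below -1 at both doses. The related ZNF512B, which binds the NuRD deacetylase complex, was at 7.51, 4.12 and 3.73 FPKM, with changes of -0.85 and -0.99. ZNF117, ZNF512 and ZNF512B passed the limit of 5 FPKM only through DMSO, so that their treated values had to lie below it.

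ZNF397, a member with a SCAN domain, was at 8.44 FPKM with vehicle, 4.19 at 2.5 μM and 2.57 at 5 μM, with changes of -0.99 and -1.68. The KRAB members ZNF738 and ZNF737 lie in 1 gene cluster of chromosome 19. ZNF738 was at 18.1, 9.70 and 8.82 FPKM (-0.89 and -1.03), and ZNF737 was at 8.26, 2.22 and 4.60 FPKM (-1.85 and -0.83). The pseudogene ZNF204P was at 12.5, 4.14 and 6.50 FPKM (-1.57 and -0.93). ZNF260, with 13 fingers and no KRAB box, was at 19.7, 11.3 and 10.6 FPKM (-0.79 and -0.89).

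**Figure D3:**
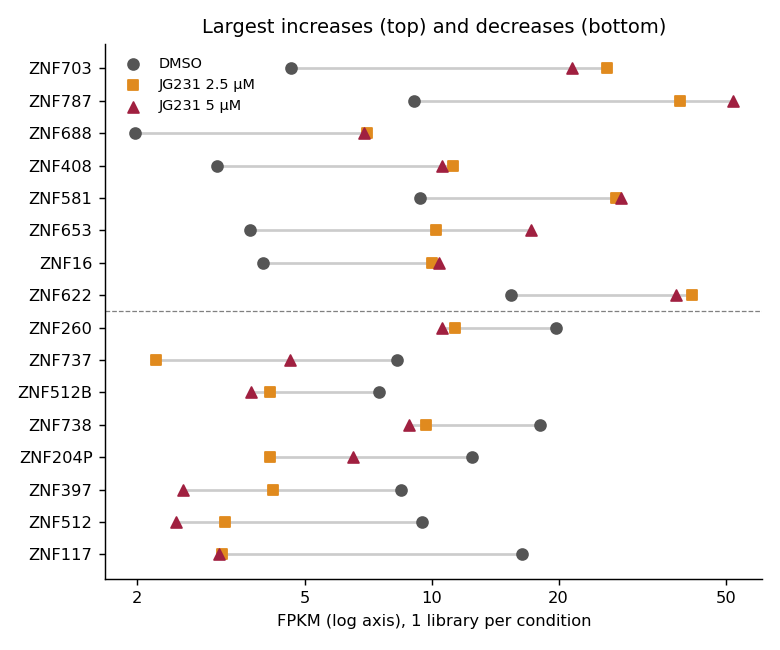
FPKM on a log axis in DMSO (circles), 2.5 μM (squares) and 5 μM (triangles) JG231, 1 library each, for the 8 members with the largest increase (top) and the 8 with the largest decrease (bottom) at both doses. Both treated libraries lie on 1 side of DMSO for each gene, as the choice of these genes required.

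Exons of 26 members overlap another gene on the same strand and those of 45 overlap a gene on the opposite strand in GENCODE release 44. Of the 16 members above, ZNF117, ZNF204P, ZNF512, ZNF581, ZNF653, ZNF737 and ZNF738 share exon sequence with a gene of their own strand, and ZNF397, ZNF512B and ZNF688 with one of the other strand. The libraries were stranded, but no source used here says if reads were counted by strand, so reads of these genes may include those of a neighbour. Close paralogs such as ZNF737 and ZNF738 may also exchange reads. Among the 70 members with no such overlap, 29 (41.4%) were higher and 10 (14.3%) were lower at both doses, beside 41.9% and 20.9% of all genes with a mean of at least 5 FPKM.

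Of the 15 members with a mean of at least 20 FPKM, 8 were higher and 1 was lower at both doses, with medians of 0.39 and 0.58 (0.10 and 0.21 after rescaling outside mitochondrial genes). Of 2271 other coding genes of that level, 1282 were higher and 302 lower at both doses, with medians of 0.41 and 0.48. The 5 highest means were those of ZNF146, ZNF503, ZNF787, ZNF622 and ZNF266. ZNF146, made up almost wholly of zinc fingers, had the highest mean. It was at 61.9 FPKM with vehicle, 53.0 at 2.5 μM and 50.3 at 5 μM, with changes of -0.22 and -0.30, lower at 5 μM. After rescaling outside mitochondrial genes ZNF146 was at -0.52 and -0.68, lower at both doses. ZNF503, the NET family paralog of ZNF703, was at 25.2, 54.8 and 53.9 FPKM, with changes of 1.12 (1.02 to 1.21) and 1.09. The paralogs ZNF503 and ZNF703 were therefore both higher at both doses. ZNF266, a KRAB member, was at 27.1, 35.6 and 31.9 FPKM, with changes of 0.39 and 0.24, which under that rescaling were 0.10 and -0.14, both within the cutoff.

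Members with roles in ribosomes, RNA and ubiquitin went both ways. Of 13 genes in this list, 9 were members, and 3 of them (33.3%) were higher and 3 lower at both doses, beside 41.9% and 20.9% of all genes of that level, with medians of 0.20 and 0.24 that were below 0 after rescaling outside mitochondrial genes. ZNF622, which helps to mature the large ribosomal subunit, was at 15.4 FPKM with vehicle, 41.5 at 2.5 μM and 38.1 at 5 μM, with changes of 1.42 (1.26 to 1.58) and 1.30 (1.14 to 1.45). ZNF598, the ubiquitin ligase that marks collided ribosomes, was at 7.03, 13.98 and 16.1 FPKM (0.98 and 1.18). ZNF330, a nucleolar protein, was at 7.08, 19.8 and 16.3 FPKM (1.47 and 1.19). All 3 were still past 0.25 at both doses under each scaling compared.

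Lower at both doses in that list were ZNF638, ZNF385A and ZNF326. ZNF638, which takes part in silencing of unintegrated retroviral DNA, was at 14.3, 8.72 and 6.56 FPKM (-0.71 and -1.11). ZNF385A, an RNA-binding partner of p53, was at 9.66, 8.11 and 5.41 FPKM (-0.2501, just past the cutoff, and -0.82). ZNF326, which couples RNA polymerase II elongation to splicing, was at 6.53, 4.18 and 4.86 FPKM (-0.63 and -0.42), and its 5 μM value was 0.11 once the length trend described below was removed. ZNF207, a kinetochore and spindle protein, was at 12.6, 14.5 and 15.2 FPKM (0.20 and 0.27), and its 5 μM value was -0.11 after rescaling outside mitochondrial genes. ZNF706 and the spliceosome protein ZNF830 stayed within 0.25 at both doses.

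Among 19 promoter-binding regulators and chromatin cofactors, 14 were members, of which 5 (35.7%) were higher and 1 (7.14%) lower at both doses, beside the same 41.9% and 20.9%, with medians of 0.19 and 0.40, the first of which was below 0 after rescaling outside mitochondrial genes. ZNF143, an activator bound at many promoters, was at 4.32, 8.45 and 6.53 FPKM (0.95 and 0.59), and its 5 μM value was 0.21, within the cutoff, after rescaling outside mitochondrial genes. Its paralog ZNF76 was at 14.6, 11.6 and 12.7 FPKM (-0.33 and -0.20), lower at 2.5 μM and within the cutoff at 5 μM. After that rescaling ZNF76 was at -0.61 and -0.57, lower at both doses. ZNF263 was at 5.81, 10.9 and 11.3 FPKM (0.90 and 0.95), and ZNF644, a partner of the G9a and GLP methyltransferases, was at 9.59, 17.0 and 15.6 FPKM (0.82 and 0.70). ZNF703 and ZNF503, given above, complete the 5 higher genes.

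ZNF217, an oncogene product found in CoREST and LSD1 complexes, was the lower gene of this list, at 15.8 FPKM with vehicle, 10.9 at 2.5 μM and 9.88 at 5 μM (-0.53 and -0.67). ZNF219, at 6.30, 6.91 and 10.4 FPKM, and ZNF335, a subunit of H3K4 methyltransferase complexes at 5.83, 6.62 and 10.1 FPKM, were higher at 5 μM (0.72 and 0.79) and within 0.25 at 2.5 μM (0.13 and 0.18). ZNF24, a SCAN protein, was at 21.1, 24.1 and 16.01 FPKM (0.19 and -0.40), and its 5 μM value was -0.06 with the length trend removed. The GC-box binding paralogs ZNF148 and ZNF281 were within 0.25 at both doses, as was ZNF687. With the length trend removed, ZNF148 was at 0.31 and 0.74, and the 5 μM values of ZNF281 and ZNF687 were 0.33 and 0.35. After rescaling outside mitochondrial genes, the 2.5 μM values of ZNF148 and ZNF687 were -0.26 and -0.51. ZNF592, a partner of ZNF687, was at 6.04, 7.31 and 6.06 FPKM (0.27 and 0.01), and its 2.5 μM value was -0.02 after rescaling outside mitochondrial genes.

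Of the genes in these lists, ZNF207, ZNF263, ZNF503 and ZNF638 overlap exons of a gene on their own strand, and ZNF143, ZNF217, ZNF219, ZNF598 and ZNF687 those of a gene on the other strand.

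Few genes of the other lists reached the level of the members. Of 10 numbered ZNF genes with roles in the nervous system, 2 were members. ZNF711, a gene of X-linked intellectual disability, was at 17.7, 22.2 and 18.1 FPKM (0.33 and 0.03), and ZNF292 was at 6.85, 6.48 and 4.94 FPKM (-0.08 and -0.47). With the length trend removed, ZNF292 was at 0.28 and 0.15, whereas after rescaling outside mitochondrial genes it was at -0.37 and -0.84. After that rescaling ZNF711 was at 0.04 and -0.34. Exons of ZNF292 overlap a gene on the opposite strand. Of 9 KRAB genes known to bind transposons, 1 was a member. This was ZNF274, which recruits SETDB1 to the 3′ ends of ZNF genes, at 9.37 FPKM with vehicle, 12.8 at 2.5 μM and 16.7 at 5 μM (0.44 and 0.82), or 0.15 and 0.45 after rescaling outside mitochondrial genes.

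KRAB and non-KRAB members had near-equal medians. A KRAB box was found in 60 members and not in 73, and 2 members were pseudogenes. With a KRAB box, 28 members were higher and 19 lower at each dose, with medians of 0.21 at 2.5 μM and 0.20 at 5 μM. Without one, 35 were higher and 16 lower at 2.5 μM and 36 were higher and 21 lower at 5 μM, with medians of 0.20 and 0.24. In shares, 46.7% of KRAB members were higher and 31.7% lower at each dose, and of the others 47.9% and 21.9% at 2.5 μM and 49.3% and 28.8% at 5 μM, beside 48.0% and 26.1%, and 48.8% and 27.4%, of all genes at the 2 doses. All 4 medians were below 0 after rescaling outside mitochondrial genes. The KRAB members had more fingers (median 11, against 7) and lower levels in DMSO (median 6.82 FPKM, against 9.27). By the number of fingers, the 30 members with at most 4 had medians of 0.46 and 0.51, the 45 with 5 to 9 had 0.18 and 0.25, the 38 with 10 to 14 had 0.23 and 0.20, and the 20 with 15 or more had 0.03 and -0.15. After that rescaling the first group had 0.17 and 0.13, and the medians of the others were below 0.

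Members with short transcripts had higher medians than those with long ones. In 35 members whose canonical transcript was at most 2500 bases, the medians were 0.54 at 2.5 μM and 0.74 at 5 μM, and 20 (57.1%) were higher and 4 (11.4%) lower at both doses, beside 55.0% and 11.6% of other coding genes of that length. In 52 members of 2500 to 4000 bases, the medians were 0.35 and 0.46, and 27 (51.9%) were higher and 9 (17.3%) lower at both doses, beside 40.1% and 20.3% of other coding genes. In 48 members over 4000 bases, they were -0.03 and -0.21, and 9 (18.8%) were higher and 17 (35.4%) lower at both doses, beside 25.5% and 32.6% of other coding genes. Other protein-coding genes of at least 5 FPKM showed the same order, with medians of 0.40 and 0.50, 0.21 and 0.19, and -0.03 and -0.13 in these 3 groups. Spearman's rho between length and change was -0.38 and -0.42 over the 135 members and -0.27 and -0.39 over 6919 other coding genes, across genes that share the same 3 libraries. With the trend of all coding genes removed, the members had medians of 0.25 and 0.30, and all genes with a mean of at least 5 FPKM had 0.11 and 0.11. Of the members called, 65.3% at 2.5 μM and 67.9% at 5 μM were then higher, beside 58.4% and 58.2% of all such genes called. Coding genes as a whole showed this trend with length, and its part in each change of a member was not tested.

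**Figure D4:**
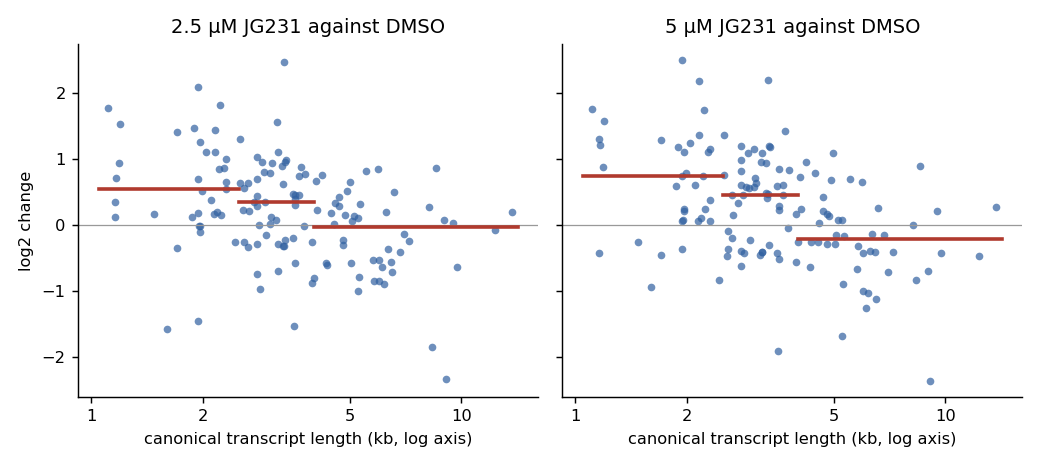
Log2 change against DMSO at 2.5 μM (left) and 5 μM (right) by canonical transcript length in kilobases (log axis), 1 point per member, with red bars at the medians of members up to 2500, 2500 to 4000 and over 4000 bases. The medians run from 0.54 to -0.03 at the lower dose and from 0.74 to -0.21 at the higher dose on the deposited FPKM scale; after rescaling outside mitochondrial genes they run from 0.26 to -0.31 and from 0.37 to -0.58.

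The largest number of members, 50 of 135, lay on chromosome 19, with medians of 0.37 and 0.25 (0.08 and -0.13 after rescaling outside mitochondrial genes), and 25 of them were higher and 11 lower at both doses, beside 41.9% and 20.9% of all genes. After that rescaling, 15 were higher and 17 lower. Clusters were formed, after the values had been seen, from numbered ZNF genes less than 500000 bases apart. In the cluster at 55476617 to 56671783 (GRCh38), 9 of 10 members were higher at both doses, with medians of 0.61 and 0.87, and 5 of 10 were after rescaling outside mitochondrial genes. Its exception was ZNF865, at -0.01 and -0.04. The members there were short (median 1965 bases), 1 of them had a KRAB box, and with the length trend removed their medians were 0.45 and 0.64. Of 5 other coding genes of at least 5 FPKM in that interval, 2 were higher and 0 were lower at both doses, with medians of 0.12 and 0.36.

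In the next cluster towards the chromosome end, at 57191500 to 58481230, 8 of 9 members were higher at both doses, with medians of 0.53 and 0.68, and 3 of 9 were after that rescaling. Of 3 other coding genes of at least 5 FPKM there, 2 were higher and 0 were lower at both doses, with medians of 0.81 and 1.26. Over all genes of that level, 41.9% were higher and 20.9% lower at both doses, and 1909 and 2729 of the 7583 were after that rescaling. The exception was ZNF837, at 7.93 FPKM with vehicle, 2.84 at 2.5 μM and 6.15 at 5 μM (-1.45 and -0.36). The clusters at 11483427 to 12640098 and at 19668796 to 24129968 had medians below 0. In the first, 1 of 5 members was higher and 3 were lower at both doses, with medians of -0.26 and -0.41. Of 2 other coding genes of at least 5 FPKM in that interval, 2 were higher and 0 were lower at both doses, with medians of 1.06 and 1.48. In the second, none of the 6 members, all with a KRAB box, was higher at both doses, and 3 were lower (ZNF253, ZNF737 and ZNF738), with medians of -0.68 and -0.38. After that rescaling, 3 of 5 and 5 of 6 were lower. The cluster at 36182276 to 37817300 had 2 members higher and 2 lower of 9. Neighbouring genes of 1 cluster are not independent measurements, and reads shared among close paralogs could make their values alike.

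**Figure D5:**
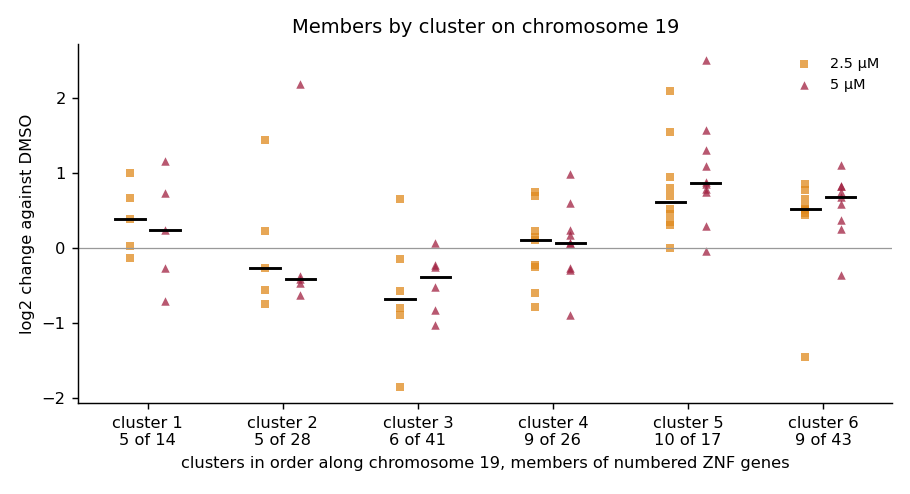
Log2 change against DMSO at 2.5 μM (squares) and 5 μM (triangles) of the members in 6 clusters along chromosome 19, with bars at the medians and the number of members among all numbered ZNF genes of each cluster below. Clusters 5 and 6 have medians of 0.61 and 0.53 at 2.5 μM, cluster 3 has -0.68, and values are on the deposited FPKM scale.

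The 2 doses were also compared with each other, a comparison that does not use the DMSO library. The median of log2(5 μM/2.5 μM) was 0.01 over the members, 36 were higher and 25 lower at 5 μM by more than 0.25, and 74 were within it. These were 26.7% and 18.5% of the members, beside 21.2% and 20.4% of all genes with a mean of at least 5 FPKM. After rescaling outside mitochondrial genes the order turned, with 25 members (18.5%) higher and 31 (23.0%) lower at 5 μM, beside 1077 and 2183 of the 7583 genes. ZNF580, next to ZNF581, was at 11.9 FPKM with vehicle, 15.2 at 2.5 μM and 29.7 at 5 μM, 0.97 higher at the higher dose. Its 2.5 μM change against DMSO was 0.34, or -0.02 with the length trend removed. ZNF837 and ZNF737 were 1.09 and 1.02 higher at 5 μM, where both were nearer to DMSO than at 2.5 μM. ZNF580, ZNF737, ZNF837 and ZNF443 overlap the exons of another gene.

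Lower at 5 μM than at 2.5 μM were ZNF609, ZNF443 and ZNF397. ZNF609, which binds the cohesin loader NIPBL and Integrator, was at 5.73, 6.03 and 3.50 FPKM, with a difference of -0.77 between the doses. ZNF443, a KRAB member, was at 6.98, 8.20 and 5.04 FPKM, with a difference of -0.69, the same as for ZNF397. ZNF609 and ZNF443 were within 0.25 of DMSO at 2.5 μM and below it at 5 μM, whereas ZNF397 was lower at both doses. With the length trend removed, ZNF609 was at 0.34 and -0.20.

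Promoters of 110 of the 135 members were matched by symbol. Motifs were searched on both strands in the 250 bases before the start. GAANNTTC was found in 6 members (5.45%), of which 5 were among the 46 matched members higher at both doses (10.9%) and 1 among the 23 lower ones (4.35%), and in 5.8% of all 34788 promoters. CACGTG was found in 5 members (4.55%) and in 6.31% of all promoters. TGATGCAA, the element bound by C/EBP and ATF factors, was in 0 member promoters and in 0.776% of all. Over 8047 promoters of other genes with a mean of at least 5 FPKM, the shares were 4.04% for GAANNTTC, 9.13% for CACGTG and 0.385% for TGATGCAA. These promoters outnumber the genes of that level, so that a gene can count more than once in these shares. CACGTG was in 1 of the 46 higher members (2.17%) and 2 of the 23 lower ones (8.7%). These counts are small, and a match describes letters in this window only.

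TRIM28 and a wider list of corepressor machinery were set beside the members. Besides TRIM28 and SETDB1, the list holds HP1 and deacetylase genes, CHD4, MORC2, EHMT1, EHMT2, DNMT1 and UHRF1, among others. Of 22 corepressor genes, 19 had a mean of at least 5 FPKM, and 1 was higher and 10 were lower at both doses, with medians of -0.31 and -0.34. Of all genes at that level, 41.9% were higher and 20.9% lower at both doses. After rescaling outside mitochondrial genes, 1 corepressor gene was higher and 15 were lower, with medians of -0.60 and -0.72, beside 1909 higher and 2729 lower of all 7583 genes. TRIM28, the direct partner of the KRAB box, was the higher gene, at 208 FPKM with vehicle, 340 at 2.5 μM and 395 at 5 μM (0.71 and 0.92). SETDB1 was at 6.13, 7.18 and 6.93 FPKM (0.22 and 0.17), within 0.25 at both doses. The HP1 gene CBX5 was at 45.8, 14.3 and 11.7 FPKM (-1.67 and -1.95), and the deacetylase HDAC1 was at 76.4, 43.1 and 38.9 FPKM (-0.82 and -0.97). Their paralogs differed less from DMSO, with CBX1 at 0.18 and 0.34, CBX3 at -0.31 and -0.32, and HDAC2 at -0.09 and -0.08. After rescaling outside mitochondrial genes TRIM28 was still higher (0.41 and 0.54) and SETDB1 was at -0.06 and -0.20. CBX1 was then at -0.11 and -0.04, CBX3 at -0.60 and -0.69, and HDAC2 at -0.38 and -0.46.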

How the data were processed

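RNA-seq of H660 cells given DMSO, 2.5 μM or 5 μM JG231 for 24 h was analysed, with 1 library per condition. The authors deposited FPKM per Ensembl gene. The submitters' processing notes name HISAT2, featureCounts and GRCh38/hg38, whereas the methods of the study name a TopHat and Cufflinks pipeline, HISAT and StringTie. Versions are not given in the sources used here. Identifiers of all 135 members were found in GENCODE release 44. Depth came from the steps of FPKM times exon length, for which values of single-transcript genes were within 0.1 of a whole number of fragments for 85.8 to 89.2% of genes.

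Changes were log2 of (FPKM + 0.1) against DMSO, the pseudocount of the study. No count model was run on FPKM. Counting intervals (95%) use fragments computed with canonical transcript lengths of GENCODE release 44. Where the length behind the FPKM differed, the fragments differ too, so the intervals are approximate. KRAB boxes were found with HMMER 3.4, by a profile of 151 windows at an E-value of 1e-05, in translated GENCODE coding sequences, in place of the RefSeq proteins first planned. Length trends were removed by lowess (fraction 0.3, statsmodels 0.14.6) over coding genes with a mean of at least 1 FPKM. Scripts ran in Python 3.11.15 with pandas 2.3.3 and numpy 2.4.6 and were tested on simulated data.

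The members, lists and tests were chosen with earlier results of these data known. Members were named when they had the 8 largest increases or decreases (by the smaller change of both doses), the 3 largest differences between doses either way, the 5 highest means or a place just inside the limit, or when they were in a role list. Other genes named were chosen after their values were seen, as were the groups by length, fingers and cluster. Alternatives were other pseudocounts, thresholds, level limits, scalings, length correction, a stricter KRAB pattern and leaving out overlapping genes. Some marker genes are not reported here.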

Additional observations from a re-analysis of the deposited data

Results flagged for a closer look

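ZNF213 and ZNF620, both KRAB members, passed 0.25 in opposite directions at the 2 doses, as did 108 of all 7583 genes (1.42%). ZNF213 was at 4.90 FPKM with vehicle, 3.91 at 2.5 μM and 6.81 at 5 μM, with log2 changes of -0.319 and 0.465. ZNF620 was at 7.89, 6.34 and 10.5 FPKM, with log2 changes of -0.31 and 0.413. After rescaling outside mitochondrial and small RNA genes the 5 μM values were 0.09 and 0.04, within the cutoff. Exons of ZNF213 overlap a gene on the opposite strand and those of ZNF620 a gene on the same strand. With 1 library per condition the difference between the doses was not tested, and both genes were named after their values were seen.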

How the results depend on the processing

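With 1 library per condition no library could be left out, and no spread bounds these values. No paired analysis was possible because each condition has 1 library. Pseudocounts of 1 and 0.01, a common sum of FPKM and removal of the length trend kept every count over the members within 1.5 times and every median within 0.25 with its sign. The stricter KRAB pattern, found in 33 members, kept the KRAB and other medians within 0.25, with 18 KRAB members higher and 8 lower at 2.5 μM. Rescaling outside mitochondrial and small RNA genes left 37 members higher and 43 lower at both doses and gave medians of -0.0861 at 2.5 μM and -0.143 at 5 μM, with -0.0735 and -0.172 for KRAB and -0.0861 and -0.136 for other members. Centring gave a median of -0.0103 at 2.5 μM. A threshold of 1 gave 15 higher and 5 lower at 2.5 μM, 24 and 6 at 5 μM, and 14 and 2 at both, of 135 members. Over all 7583 genes with a mean of at least 5 FPKM, it gave 1037 and 478, 1239 and 567, and 862 and 356. A limit of 1 FPKM gave 111 and 175, 118 and 190, and 88 and 148, with medians of -0.167 and -0.233. A limit of 10 FPKM gave 29 and 9, 30 and 14, and 27 and 8, with a 5 μM median of 0.588. Members of 10 to 20 and of at least 20 FPKM had 5 μM medians of 0.593 and 0.584, beside 0.2 and 0.482 of other coding genes. After the rescaling these were 0.215 and 0.205, beside -0.177 and 0.103. Every gene above 0 gave 122 and 232, 132 and 252, and 91 and 194, with medians of -0.239 and -0.295. Leaving out overlapping genes, an alternative chosen after seeing the data, gave 36 and 14, 33 and 16, and 29 and 10 among 70 members. These limits and overlaps change which genes are counted, and their counts stand here without the share over all genes. Among named members, changes past 0.25 turned sign with the length trend removed for ZNF580 at 2.5 μM (-0.0206), ZNF326 at 5 μM (0.11) and ZNF292 at 5 μM (0.154). With the rescaling they turned for ZNF207 at 5 μM (-0.106) and ZNF592 at 2.5 μM (-0.0159). Members not named also turned with the rescaling, among them ZNF34 at 2.5 μM (0.286 to -0.002) and ZNF7, ZNF71 and ZNF550 at 5 μM. Of 92 changes of named members, a further 18 within 0.25 turned sign with the rescaling and 4 with the length trend removed. Depth limits the low values, with an estimated 35 fragments behind the smallest.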

Other observations

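Other zinc finger families of at least 5 FPKM differed in their medians. Of 8 KLF genes, 6 were higher and 1 lower at both doses, beside 41.9% and 20.9% of all genes of that level, with median log2 changes of 1.28 at 2.5 μM and 1.14 at 5 μM. Of 21 ZBTB genes, 5 were higher and 6 lower at both doses, against the same shares, with medians of -0.13 and -0.18. The 7 ZSCAN and ZKSCAN genes had medians of 0.01 and -0.17, and the 5 ZFP genes had -0.15 and -0.08. After rescaling outside mitochondrial and small RNA genes the KLF medians were 0.98 and 0.76, and those of the other families were below 0.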
